A study of Mus musculus with 64 samples.

Results

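The genes described here are 34 genes of mitochondrial fatty acid oxidation and of its control, taken by symbol from a table of 20637 genes, and all 34 were found. RNA was sequenced from 4 cell populations of CD1 mouse ventricles 3 days after surgery on postnatal day 56 (P56) or postnatal day 1 (P1). The surgery was either myocardial infarction (MI), for which the left descending coronary artery was tied off for good, or a sham operation without it. The populations were cardiomyocytes, taken as the bottom layer of a Percoll gradient, fibroblasts sorted as CD90+/CD45-/CD31- cells, CD45+ leukocytes, and endothelial cells sorted as CD31+/CD45- cells. Each of the 16 groups (P56 MI, P56 sham, P1 MI and P1 sham in each population) had 4 libraries. The labels name no transgene or deletion in any group. Adult hearts came from males and were perfused with enzyme, while the neonatal ones were digested by stirring in pools of 6 ventricles, so that age cannot be told apart from the isolation or from sex. Whether replicates were separate animals or pools is not stated in the labels, and p-values then measure only how far these libraries spread, which may be technical.

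Heart muscle cells burn fatty acids as their main fuel in the adult, while the heart before and just after birth relies more on glucose and lactate. A fatty acid is bound in the cytosol, joined to coenzyme A, carried into the mitochondrion as a carnitine ester and shortened by repeated rounds of dehydrogenation, hydration, a second oxidation and thiolysis. Malonyl-CoA, made at the mitochondrial surface, inhibits the first carnitine transferase and so sets the rate of entry. Receptors of the PPAR and ERR families and the PGC-1 coactivators switch on the genes of the pathway.

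Recovered reads per library ran between 9.59 M and 27.5 M (M, 1e6), around a median of 20.6 M. The floor for counting error only, 3 reads, corresponded to 0.102 to 0.409 CPM. CPM is the authors' name for their normalised signal, which does not sum to 1e6 per library. It summed to 1.93e+06 to 2.63e+06 in P56 sham and to 895200 to 1.27e+06 in P1 sham cardiomyocyte libraries. Reads of mitochondrial ribosomal RNA took 21.7% ± 7.12 of the P56 MI and 29.9% ± 6.27 of the P56 sham cardiomyocyte libraries, against 11.7% ± 3.21 of the P1 MI and 12.1% ± 3.67 of the P1 sham ones (SD, n = 4 each). Nuclear 18S ribosomal RNA exceeded 5% of the reads in 7 libraries. Among the P56 sham leukocyte libraries, library 1 stood apart, with 14 cardiomyocyte marker genes summing to 206938 CPM in library 1 and to 75461 to 101821 CPM in the other 3. That sum was 105% of the mean of the P56 sham cardiomyocyte libraries, so the counts and the fold changes named below that use this library are also given without it. Levels are CPM, and fold changes are differences on the log2(CPM + 0.5) scale ± standard error, which understates the change of low genes. A gene was called, or said to have risen or fallen, at a Benjamini-Hochberg adjusted p under 0.05 from limma over all genes tested.

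Promoter windows of 300 bases were matched for 30 of the 34 genes in RefSeq (GRCm38.p6), 34 windows in all because some genes have several starts. Each runs from 250 bases before to 50 bases after the start. The windows were searched on both strands for AGGTCA, the hexamer to which PPAR and ERR receptors bind, for the same hexamer repeated with 1 base between (DR1), and for TCAAGGTCA, an extended ERR site that holds AGGTCA within it. The hexamer alone was searched after the longer motifs had given no match. It was found in 6 of the 34 windows (17.6%), against 5340 of all 32851 RefSeq promoter windows (16.3%). The extended site was found in 0 of the 34 and in 139 of all windows (0.423%), and DR1 in 0 and in 13 (0.0396%). The genes with the hexamer were Acacb, Acadm, Acadvl, Cpt1a, Echs1 and Ucp3. A match is a description of these letters and not of a bound site. 4 windows are printed 5′ to 3′ on the gene's own strand with the hexamer in capitals (TGACCT is AGGTCA on the other strand) and its first base counted from the start. Cpt1a, Acadm and Ucp3 are shown because their RNA followed 3 different courses below. Hadhb is shown because it starts head to head with Hadha, 273 bases away on chromosome 5 by the RefSeq starts (Hadha at 30154980 on the minus strand and Hadhb at 30155253 on the plus strand). The spans in the authors' table differ from these and put the starts at 30155162 and 30155248. These are the genes of the 2 subunits of one enzyme, and this window has no hexamer.
Cpt1a, chr19:3323051-3323350, plus strand, hexamer from base -94: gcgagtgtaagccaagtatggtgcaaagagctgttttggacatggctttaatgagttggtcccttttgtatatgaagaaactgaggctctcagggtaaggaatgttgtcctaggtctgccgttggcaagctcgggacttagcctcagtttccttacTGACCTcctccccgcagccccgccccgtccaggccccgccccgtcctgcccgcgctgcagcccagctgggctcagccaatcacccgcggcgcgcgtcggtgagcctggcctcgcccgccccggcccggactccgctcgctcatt
Acadm, chr3:153944594-153944893, minus strand, hexamer from base -249: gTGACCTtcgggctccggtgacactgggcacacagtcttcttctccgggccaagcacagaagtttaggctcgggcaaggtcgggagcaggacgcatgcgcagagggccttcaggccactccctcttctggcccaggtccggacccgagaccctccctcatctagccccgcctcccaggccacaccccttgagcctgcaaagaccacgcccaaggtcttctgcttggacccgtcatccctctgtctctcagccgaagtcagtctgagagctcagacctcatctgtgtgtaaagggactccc
Ucp3, chr7:100472741-100473040, plus strand, hexamers from bases -149 and -44: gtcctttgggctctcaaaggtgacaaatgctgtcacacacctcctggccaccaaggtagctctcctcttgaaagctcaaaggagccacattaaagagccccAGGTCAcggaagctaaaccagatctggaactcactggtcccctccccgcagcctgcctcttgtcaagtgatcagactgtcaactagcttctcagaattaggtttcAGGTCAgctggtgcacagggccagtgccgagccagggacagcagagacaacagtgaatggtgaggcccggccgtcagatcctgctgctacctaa
Hadhb, chr5:30155003-30155302, plus strand: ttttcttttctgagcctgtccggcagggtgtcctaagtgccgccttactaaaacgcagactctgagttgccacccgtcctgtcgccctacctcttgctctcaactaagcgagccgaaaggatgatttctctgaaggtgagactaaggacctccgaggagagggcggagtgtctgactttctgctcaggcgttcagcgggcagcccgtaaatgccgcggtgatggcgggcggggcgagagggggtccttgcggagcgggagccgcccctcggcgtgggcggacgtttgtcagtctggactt

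The sham libraries were compared first, to ask how the pathway's RNA in each population differs between the adult and the neonatal heart. In cardiomyocytes 32 of the 34 genes were called higher at P56 and 1 lower, beside 33.3% of the 15461 genes tested that were called higher and 37.0% called lower. The median log2 fold change of the 34 genes was 1.64, against -0.09 over all genes tested. The libraries of the 2 ages did not overlap for 31 genes, beside 64.7% of all genes tested, and they overlapped for Acot2, Ucp3 and Ppargc1b. Cpt1a was the gene that fell and Ucp3 was not called. The values were also rescaled to the same sum per library without ribosomal and mitochondrially encoded RNA. The median over all genes then moved to -0.88 and that of the 34 genes to 0.80. Of these, 24 were called higher and 1 lower, and Acot2, Hadh and Ppargc1b changed sign. This rescaling also replaced the authors' normalisation, under which the P56 sham libraries had the larger sums. The part of each step in the shift was not tested, here or in the later uses of the rescaled values. In bulk libraries, more cells of a type and more RNA per cell cannot be told apart. The cardiomyocyte fraction itself differed with age: all 14 cardiomyocyte markers were higher at P56 (median 2.00), 10 of 11 fibroblast markers, 8 of 9 leukocyte markers and all 5 erythroid markers tested were lower, and the part of these shifts in the result was not tested.

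**Figure D1:**
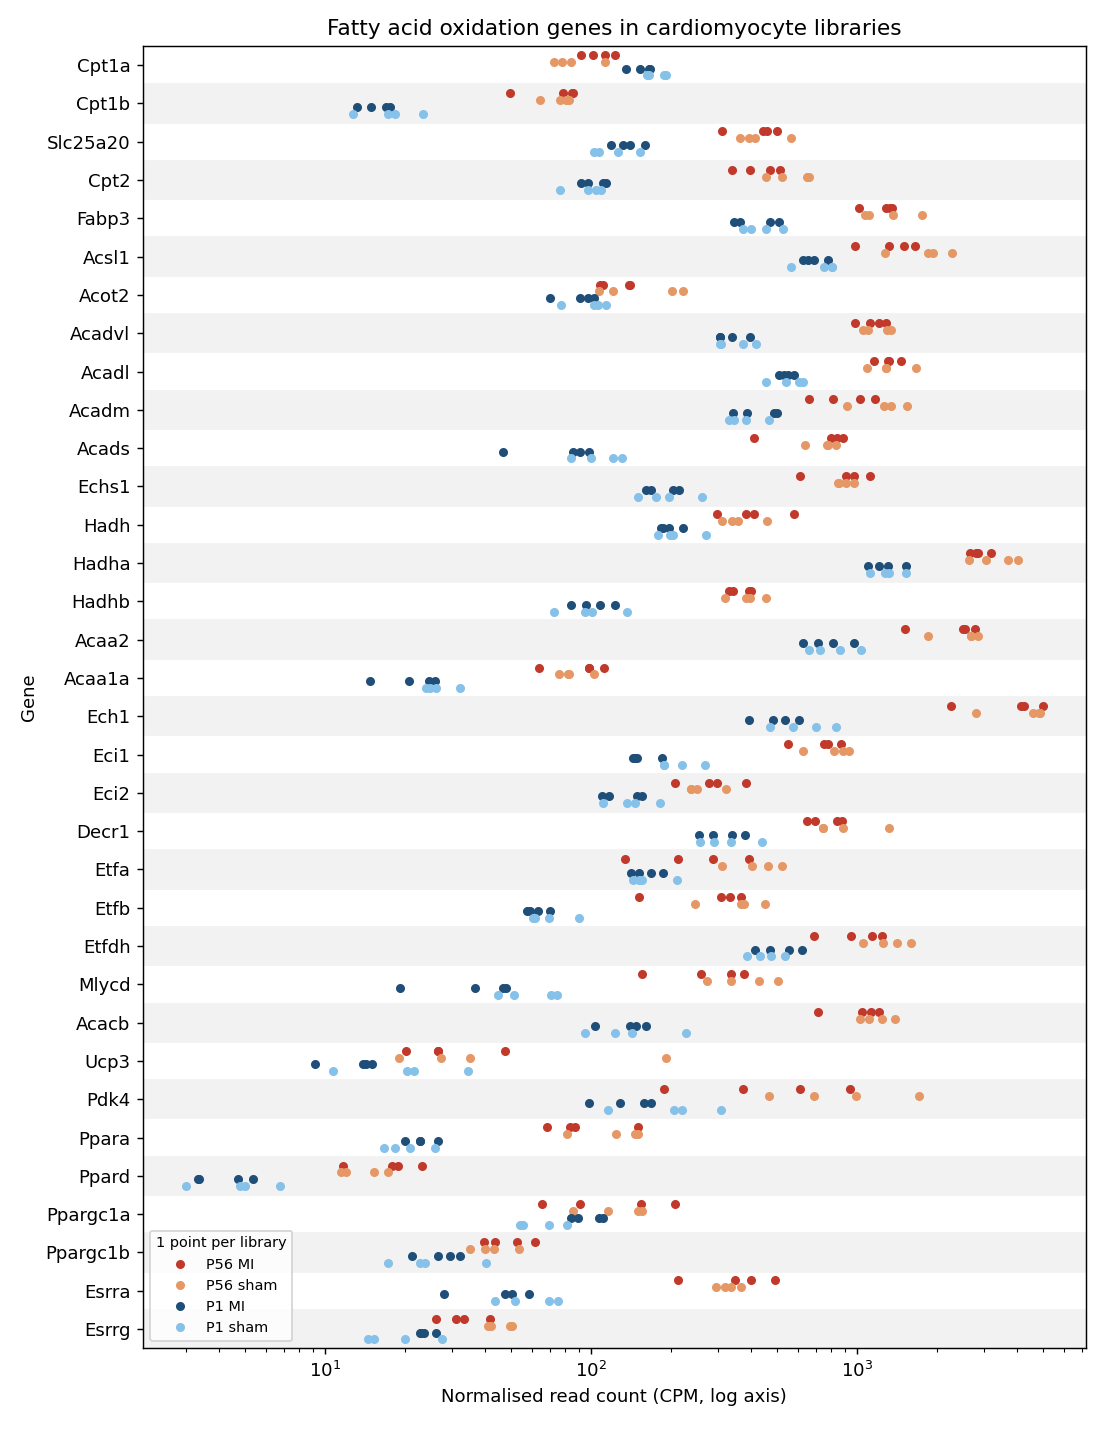
Level of each of the 34 genes in every cardiomyocyte library (x axis, normalised read count in CPM, log axis; 1 point per library, colours for the 4 groups). The P56 groups lie to the right of the P1 groups for most genes and to the left for Cpt1a, and the MI and sham points of 1 age intermix.

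The carnitine shuttle moves long-chain acyl groups across the inner mitochondrial membrane, and its entry enzyme, carnitine palmitoyltransferase 1, has a liver isoform (Cpt1a) and a muscle isoform (Cpt1b). Cpt1a (ENSMUSG00000024900, chromosome 19, 3323301 to 3385732 on GRCm38) had 113, 84.4, 72.8 and 77.7 CPM in P56 sham cardiomyocytes, against 165, 191, 188 and 162 CPM in P1 sham cardiomyocytes. Every adult library was below every neonatal one, and the log2 fold change was -1.03 ± 0.16 (limma adjusted p 1.21e-05). Cpt1b (ENSMUSG00000078937, chromosome 15, 89416405 to 89425863) had 80.8, 76.5, 82.5 and 64.4 CPM in P56 sham cardiomyocytes, against 17.3, 23.3, 18.4 and 12.8 CPM in P1 sham cardiomyocytes. The groups did not overlap and the change was 2.08 ± 0.20 (limma adjusted p 3.94e-08). Per kb of exon, Cpt1b made up 66.6% ± 4.23 of the summed level of both isoforms in P56 sham cardiomyocytes and 18.5% ± 2.70 in P1 sham cardiomyocytes (SD, n = 4 each). With the length in the authors' table in place of the GENCODE exon length the shares were 56.7% ± 4.69 and 13.0% ± 2.02. The level of Cpt1b is uncertain, because 2744 of its 3372 exonic bases are shared on the same strand with a readthrough gene, and no source used here says how the authors counted such reads.

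**Figure D2:**
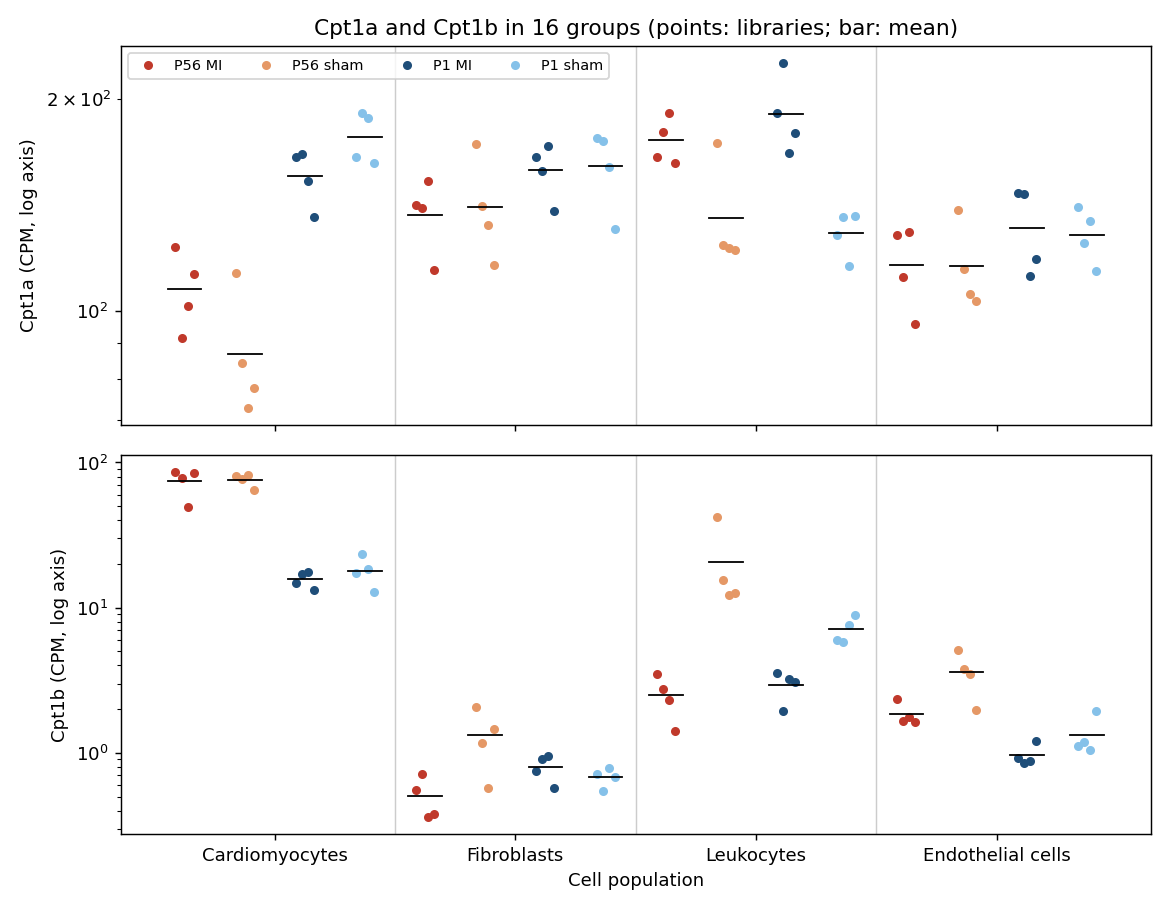
Normalised read count (CPM) of Cpt1a and of Cpt1b in every library of the 16 groups, with a black line at each group's mean (n = 4). Cpt1a has its lowest group mean in P56 sham cardiomyocytes, and Cpt1b lies between 49.5 and 85.8 CPM in the P56 cardiomyocyte libraries and reaches 42.1 CPM in 1 library elsewhere, library 1 of P56 sham leukocytes.

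The other shuttle members rose. Cpt2 (ENSMUSG00000028607, chromosome 4, 107903981 to 107923610), which frees the acyl group inside the mitochondrion, had 647, 662, 522 and 454 CPM in P56 sham cardiomyocytes, against 104, 109, 97.8 and 76.6 CPM in P1 sham cardiomyocytes. The groups did not overlap, and the change was 2.55 ± 0.17 (limma adjusted p 4.92e-10). Slc25a20, the carrier that exchanges acylcarnitine for carnitine, averaged 433 ± 90.0 and 122 ± 22.9 CPM at P56 and P1 (log2 fold change 1.82). All 3 genes of binding and activation rose. Fabp3, the fatty acid binding protein of heart and muscle (ENSMUSG00000028773, chromosome 4, 130308595 to 130315463), had 1363, 1761, 1109 and 1075 CPM in P56 sham cardiomyocytes, against 525, 456, 398 and 374 CPM in P1 sham cardiomyocytes, without overlap (1.58 ± 0.19). Acsl1, the main acyl-CoA synthetase of the heart, averaged 1829 ± 414 and 731 ± 114 CPM (1.31). Acot2, a mitochondrial thioesterase whose reads may be shared with its near copy Acot1, rose by 0.65 ± 0.22 (limma adjusted p 0.0133) with overlapping libraries.

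All 4 acyl-CoA dehydrogenases, which open each round and differ in the chain length they accept, rose in adult cardiomyocytes (median 1.75). Acads, for short chains, had the largest change of the 4, with 771, 776, 835 and 638 CPM in P56 sham cardiomyocytes, against 100, 121, 131 and 83.8 CPM in P1 sham cardiomyocytes (2.80 ± 0.25). Acadm, for medium chains (ENSMUSG00000062908, chromosome 3, 153922357 to 153944632), had 1261, 1537, 914 and 1346 CPM in P56 sham cardiomyocytes, against 468, 381, 344 and 330 CPM in P1 sham cardiomyocytes (1.72 ± 0.21). Neither gene had an adult library within the neonatal range. Acadvl and Acadl, for very long and long chains, changed by 1.77 and 1.25.

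The 6 genes of hydration, the second oxidation and thiolysis all rose too (median 1.64). Hadha, the alpha subunit of the mitochondrial trifunctional protein (ENSMUSG00000025745, chromosome 5, 30118304 to 30155162), had 3687, 4019, 2639 and 3040 CPM in P56 sham cardiomyocytes, against 1523, 1273, 1316 and 1115 CPM in P1 sham cardiomyocytes (1.35 ± 0.19). The lowest adult library lay above the highest neonatal one. Hadhb, its beta subunit, averaged 389 ± 56.5 and 101 ± 26.6 CPM and changed by 1.96. The short-chain hydratase Echs1 changed by 2.22, the thiolases Acaa2 and Acaa1a (the peroxisomal one) by 1.61 and 1.66, and the short-chain hydroxyacyl-CoA dehydrogenase Hadh by 0.79 ± 0.19 (limma adjusted p 0.00147).

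The auxiliary enzymes that handle unsaturated chains rose as well, 4 of 4. Ech1, a dienoyl-CoA isomerase (ENSMUSG00000053898, chromosome 7, 28825217 to 28832247), had 4850, 4602, 4833 and 2797 CPM in P56 sham cardiomyocytes, against 833, 472, 701 and 577 CPM in P1 sham cardiomyocytes (2.72 ± 0.26). Library 4 was the low one of the adult group and still lay above every neonatal library. The enoyl-CoA isomerases Eci1 and Eci2 changed by 1.91 and 0.87, and the dienoyl-CoA reductase Decr1 by 1.47. The electron transfer flavoprotein passes electrons from the dehydrogenases to its oxidoreductase, and its subunits Etfa (1.35) and Etfb (2.33) rose with the oxidoreductase Etfdh (1.53). Per kb of exon, Ech1, Acaa2 and Fabp3 had the highest levels of the 34 genes at both ages with either gene length, and Ppard the lowest. By GENCODE exon length, Ech1 stood at 1870 CPM per kb in P56 sham cardiomyocytes and at 283 CPM per kb in P1 sham cardiomyocytes.

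Genes around malonyl-CoA and fuel choice included the largest change of the 34 genes. Acacb, the acetyl-CoA carboxylase that makes malonyl-CoA at the mitochondrion (ENSMUSG00000042010, chromosome 5, 114146535 to 114250761), had 1389, 1110, 1240 and 1026 CPM in P56 sham cardiomyocytes, against 123, 227, 142 and 94.8 CPM in P1 sham cardiomyocytes. No adult library came near the neonatal range, and the change was 3.08 ± 0.24 (limma adjusted p 1.92e-09). Mlycd, which degrades malonyl-CoA, rose with it, with 506, 336, 429 and 272 CPM at P56, against 51.6, 70.6, 74.6 and 44.9 CPM at P1 (2.66 ± 0.30). Pdk4, the kinase that shuts off pyruvate dehydrogenase (ENSMUSG00000019577, chromosome 6, 5483351 to 5496309), had 1704, 989, 465 and 686 CPM in P56 sham cardiomyocytes, against 219, 309, 205 and 116 CPM in P1 sham cardiomyocytes. Adult library 1 was the highest, the groups did not overlap, and the change was 2.09 ± 0.43 (limma adjusted p 0.000261). Ucp3, a mitochondrial carrier of muscle that PPAR activity induces, had 191, 27.4, 19.0 and 35.1 CPM in P56 sham cardiomyocytes, against 21.6, 34.6, 20.4 and 10.7 CPM in P1 sham cardiomyocytes. Only library 1 of the adult group was high, the groups overlapped, and Ucp3 was not called (1.09 ± 0.50, limma adjusted p 0.0609).

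All 6 regulators rose in adult cardiomyocytes (median 1.36). Ppara, the fatty acid receptor most tied to cardiac fat use (ENSMUSG00000022383, chromosome 15, 85734983 to 85802819), had 81.6, 146, 124 and 150 CPM in P56 sham cardiomyocytes, against 25.9, 16.7, 20.8 and 18.3 CPM in P1 sham cardiomyocytes (2.57 ± 0.23). Esrra, which encodes the orphan receptor ERR alpha (ENSMUSG00000024955, chromosome 19, 6910977 to 6921813), had 319, 295, 368 and 336 CPM at P56, against 52.0, 74.9, 69.8 and 43.5 CPM at P1 (2.48 ± 0.25). Both genes were separated by age in every library. The coactivator gene Ppargc1a, which encodes PGC-1 alpha (ENSMUSG00000029167, chromosome 5, 51454250 to 51567726), had 85.9, 155, 150 and 116 CPM at P56, against 69.3, 81.2, 53.9 and 55.4 CPM at P1. The groups came close without overlapping. The change of 0.94 ± 0.28 (limma adjusted p 0.00608) became 0.10 (limma adjusted p 0.760) on the values rescaled without ribosomal and mitochondrial RNA. Ppard, the second PPAR, changed by 1.46, Esrrg, the gamma member of the ERR family, by 1.27, and Ppargc1b, the second PGC-1 coactivator, by 0.76 with overlapping libraries.

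Lists of other genes of the pathway, which were drawn up with earlier results of these data known, moved less uniformly in cardiomyocytes, where 33.3% of all genes tested were called higher and 37.0% lower. Their 69 tested genes gave 41 higher and 16 lower. Of 15 other oxidation enzymes tested, 13 rose and 0 fell at P56, with a median of 1.00. Acad11, an acyl-CoA dehydrogenase, averaged 362 and 30.8 CPM at P56 and P1 (3.53 ± 0.19). Of 21 genes of uptake, storage and activation, 12 rose and 6 fell (median 0.97). The triglyceride synthase Dgat2 (626 and 31.0 CPM, 4.31 ± 0.19) rose most and the binding protein gene Fabp5 (3.56 and 45.6 CPM, -3.48 ± 0.23) fell most. Among 10 other PPAR targets and fuel choice genes 5 rose and 4 fell, the pyruvate dehydrogenase kinase Pdk2 (394 and 39.5 CPM, 3.38 ± 0.27) and its relative Pdk3 (2.57 and 28.0 CPM, -3.27 ± 0.22) going opposite ways. Of 9 genes of fatty acid synthesis 4 rose and 5 fell, the elongase Elovl6 the furthest (0.378 and 7.59 CPM, -3.21 ± 0.26). Of 14 other regulators 7 rose and 1 fell, led by the retinoid receptor Rxrg (205 and 6.81 CPM, 4.82 ± 0.23) and the transcription factor Klf15 (123 and 6.70 CPM, 4.09 ± 0.21). On the values rescaled without ribosomal and mitochondrial RNA, which was tried on these lists after the data were seen, the oxidation enzymes gave 6 higher and 2 lower (median 0.16) and the genes of uptake, storage and activation 8 and 8 (0.14). The PPAR targets and fuel choice genes then gave 4 and 5 (-0.39), fatty acid synthesis 4 and 5 (-1.45) and the other regulators 7 and 6 (0.11). Over all genes the rescaled values gave 12137 calls in either direction and a median of -0.88.

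The 4 populations were then compared within sham libraries. At P56, 29 of the 34 genes were called higher in cardiomyocytes than in each of the other 3 populations, beside 26.8% of the 17618 genes tested. The exceptions were Cpt1a, Ppard, Ppargc1a, Ppargc1b and Esrrg. Without P56 sham leukocyte library 1 the count was 31, with Ppargc1b and Esrrg added, beside 27.5% of all genes. At P1, 28 genes were higher in cardiomyocytes than in each other population, beside 16.4% of all genes, and the exceptions were Cpt1a, Acaa1a, Acacb, Ucp3, Ppard and Ppargc1b. Adult fibroblasts, leukocytes and endothelial cells held Cpt1a at 162%, 156% and 133% of the mean of adult cardiomyocytes, and leukocytes at 141% without library 1. In the neonate Ppard stood at 241%, 442% and 219% of the cardiomyocyte mean in the same populations. Among the P56 sham populations the range of the 14 cardiomyocyte markers, taken as a share of their level in cardiomyocytes, was 0.317% to 10.8% in fibroblasts, 6.92% to 307% in leukocytes and 1.12% to 36.4% in endothelial cells, with Ttn the highest each time and 0 markers absent. Members above all 14 markers on that scale were 5 in fibroblasts (Cpt1a, Acaa1a, Eci2, Ppard and Ppargc1b), 0 in leukocytes and 3 in endothelial cells (Cpt1a, Acaa1a and Ppard). Without leukocyte library 1 the range in leukocytes was 5.43% to 224%, again with 0 members above it. With Ttn at its top, the range in leukocytes is too wide to tell the genes from the markers.

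In fibroblasts the age change was smaller and split. Of 32 genes tested, 17 were called higher at P56 and 5 lower, beside 34.8% and 32.2% of all genes, with a median of 0.37 against 0.03 over all genes. Cpt1b and Ucp3 did not pass the filter on low values, which asked for 1 CPM in 4 libraries. Acacb had 51.1, 47.4, 39.0 and 44.3 CPM in P56 sham fibroblasts, against 12.7, 10.1, 9.41 and 7.49 CPM in P1 sham fibroblasts (2.16 ± 0.18, limma adjusted p 2.66e-08). Pdk4 had 70.6, 31.4, 32.5 and 29.9 CPM at P56, against 8.33, 11.8, 8.95 and 7.08 CPM at P1 (2.05 ± 0.24). Both genes were separated by age, with library 1 of the adult group high for Pdk4. Ppargc1a, at a lower level than both, had 6.53, 3.70, 5.29 and 4.71 CPM at P56, against 1.12, 1.01, 0.891 and 1.77 CPM at P1, also without overlap (1.71 ± 0.27). The genes that fell were Eci2, Etfb, Acaa2, Echs1 and Hadh. Eci2 had 32.1, 29.8, 30.4 and 25.0 CPM at P56, against 51.6, 48.3, 47.4 and 47.9 CPM at P1, a complete separation (-0.73 ± 0.09, limma adjusted p 1.98e-06). Etfb changed by -0.49 ± 0.12 and Acaa2 by -0.33 ± 0.14 (limma adjusted p 0.0435), the second with overlapping libraries. In the same libraries 13 of 14 cardiomyocyte markers were higher at P56 (median 1.96), at a summed 1.45% to 3.05% of the cardiomyocyte level in P56 sham fibroblasts and 0.526% to 0.947% in P1 sham fibroblasts. Their part in the fibroblast changes was not tested.

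Leukocyte and endothelial libraries followed cardiomyocytes in direction for most genes, along with their cardiomyocyte markers. In leukocytes 28 of 34 genes were called higher at P56 and 1 lower (32.5% and 34.5% of all genes), with a median of 1.55 against -0.01 over all genes. Ppara had 67.8, 41.3, 41.5 and 44.4 CPM in P56 sham leukocytes, against 6.07, 5.36, 5.79 and 7.07 CPM in P1 sham leukocytes (2.88 ± 0.32), and Acadm had 847, 414, 294 and 432 CPM, against 82.7, 78.0, 89.3 and 84.6 CPM (2.45 ± 0.25). No library of the 2 ages overlapped for either, and library 1 was the highest adult library for both. Cpt2 rose by 2.38. Ppard fell, with 9.62, 11.2, 15.2 and 11.7 CPM at P56, against 23.7, 18.8, 17.8 and 26.0 CPM at P1 (-0.83 ± 0.14, limma adjusted p 9.76e-05). Beside this, 13 of 14 cardiomyocyte markers rose (median 1.80), and their summed level was 38.4% to 105% of that of cardiomyocytes in P56 sham leukocytes and 34.4% to 45.2% in P1 sham leukocytes. Other markers moved as well: 7 of 7 macrophage markers tested rose, all 11 endothelial, all 6 neutrophil and all 5 erythroid markers tested fell, and so did 7 of 11 fibroblast markers. The part of these shifts in the leukocyte changes was not tested. Without library 1 of the P56 sham group, 28 genes were higher and 1 lower, with a median of 1.18. The shares of all genes above come from the fit with library 1. The changes without it were 2.71 for Ppara, 2.16 for Acadm, 2.02 for Cpt2 and -0.74 for Ppard.

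In endothelial cells 28 of 33 genes tested were called higher at P56 and 1 lower (33.6% and 29.3% of all genes), with a median of 1.09 against 0.05. Fabp3 had 36.2, 31.9, 22.8 and 15.4 CPM in P56 sham endothelial cells, against 1.49, 3.45, 2.13 and 6.23 CPM in P1 sham endothelial cells (2.91 ± 0.36, limma adjusted p 2.81e-06). Ppara had 8.90, 8.13, 8.40 and 4.91 CPM at P56, against 0.448, 0.411, 0.504 and 1.25 CPM at P1 (2.83 ± 0.23), and Ppargc1a 17.3, 14.7, 16.9 and 7.74 CPM, against 0.896, 1.15, 1.16 and 4.81 CPM (2.72 ± 0.39). All 3 genes separated the ages, with library 4 the lowest adult and the highest neonatal library each time. Eci2 was the gene that fell, by 0.29 on the log2 scale (SE 0.11, limma adjusted p 0.0308) with overlapping libraries. All 14 cardiomyocyte markers rose too (median 3.26), at a summed 4.68% to 10.7% of the cardiomyocyte level at P56 and 1.23% to 4.52% at P1, where library 4 was the highest. Their part in the endothelial changes was not tested. Fabp3 stood at 2.00% of its cardiomyocyte level in P56 sham endothelial cells, beside a marker median of 2.48%. In P1 sham endothelial cells it stood at 0.759%, beside a marker median of 1.21%. The median of the 34 genes was 6.82% at P56 and 9.92% at P1.

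**Figure D3:**
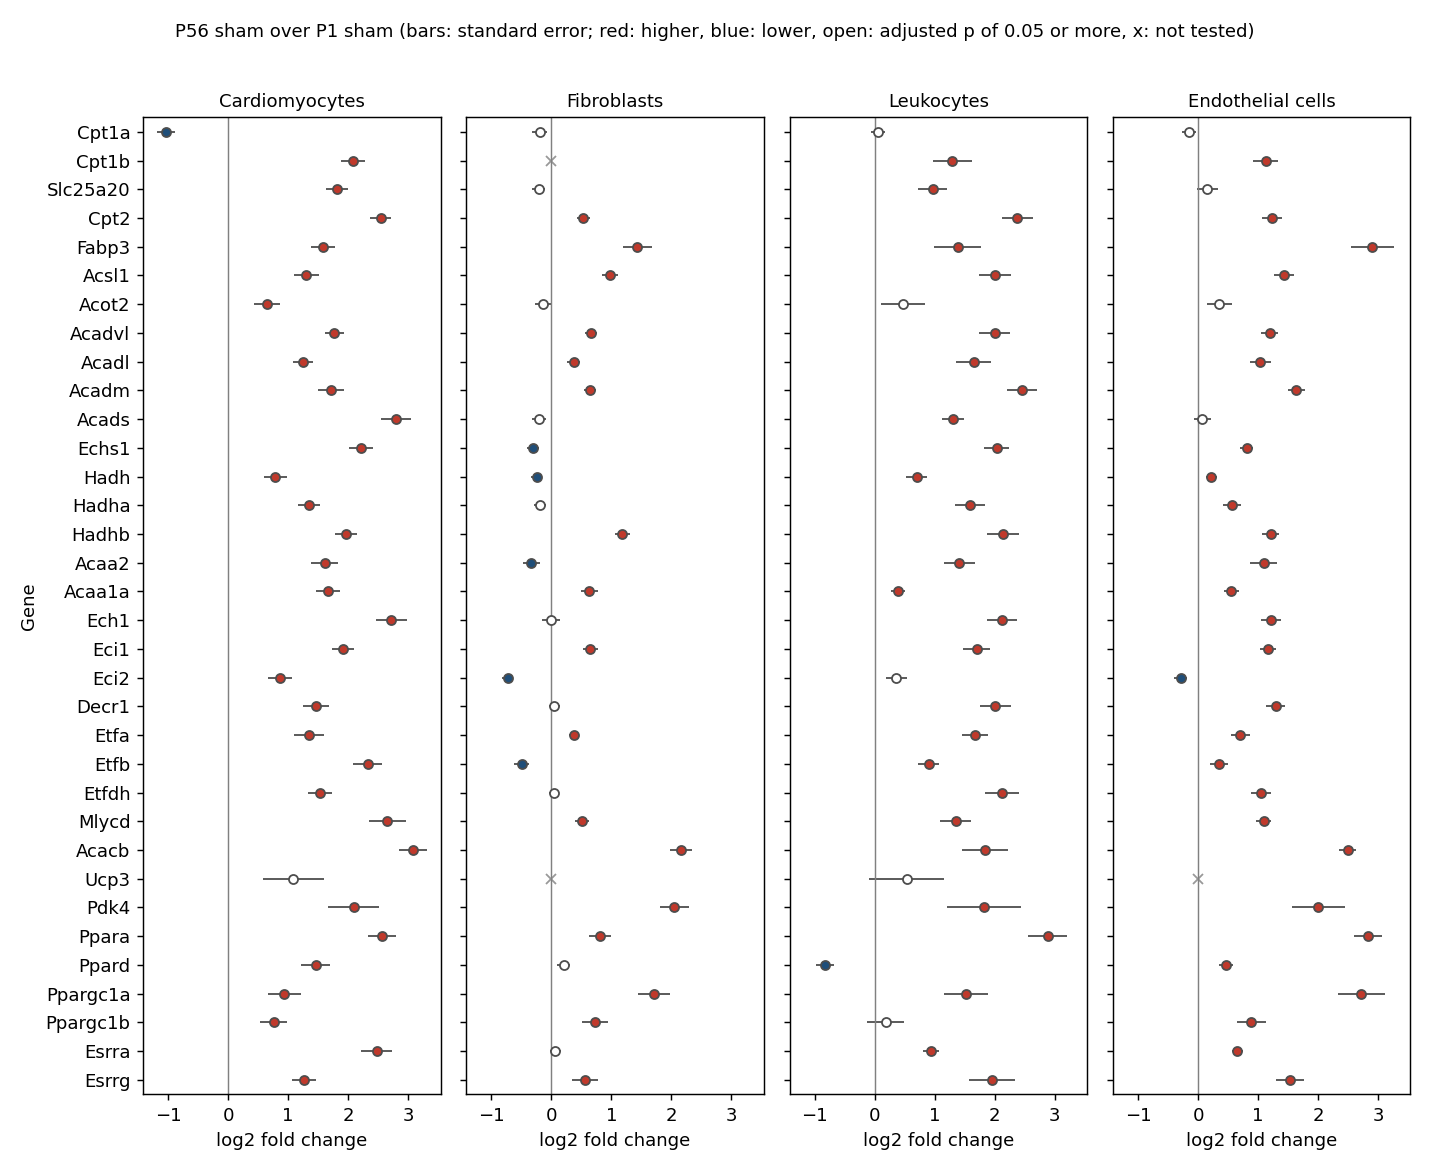
Log2 fold change of P56 sham over P1 sham for each gene in the 4 populations (bars, standard error; red higher, blue lower, open adjusted p of 0.05 or more, x not tested). Cardiomyocytes show 32 higher genes and Cpt1a lower, on the deposited scale. On the values rescaled without ribosomal and mitochondrial RNA, Acot2, Hadh and Ppargc1b change sign there.

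The age changes themselves were set against each other in 1 fit of the 32 sham libraries. The change in cardiomyocytes exceeded that in fibroblasts for 25 genes and fell short of it for 1, beside 30.0% and 39.4% of all genes. On the values rescaled without ribosomal and mitochondrial RNA, the median over all genes was -0.92 instead of -0.21. The split was then 12 and 3. Against leukocytes it was 8 and 2 genes (29.0% and 29.3% of all genes), and 5 and 15 on the rescaled values. Without P56 sham leukocyte library 1 it was 14 and 1 (30.7% and 29.2% of all genes). Against endothelial cells it was 17 and 3 (27.1% and 37.7%), and 6 and 10 on the rescaled values. The rescaling changed the sign of the difference for 10 of the 34 genes against fibroblasts, 12 against leukocytes and 14 against endothelial cells. Over all genes, 13378, 10921 and 12735 were called in either direction on the rescaled values, in the same order. The medians of the 34 genes and of all genes were then 0.25 and -0.92, -0.53 and -0.56, and -0.25 and -0.82. On the deposited scale, Acads differed most from fibroblasts (3.00) and endothelial cells (2.73), followed by Etfb (2.82 and 1.97). Acads also exceeded the change in leukocytes (1.50). Ech1 exceeded fibroblasts by 2.73, and Esrra exceeded leukocytes by 1.54 and endothelial cells by 1.82. Ppard, which rose in cardiomyocytes and fell in leukocytes, differed by 2.29. The change of Cpt1a in cardiomyocytes minus that in fibroblasts was -0.84 (limma adjusted p 0.000384), minus that in leukocytes -1.09 (2.16e-05) and minus that in endothelial cells -0.88 (0.000269), and it kept that sign on the rescaled values. Ppargc1a (-1.78) and Fabp3 (-1.33) rose more in the endothelial libraries than in cardiomyocytes, and Acadm (-0.73, limma adjusted p 0.0300) more in the leukocyte libraries. Summed cardiomyocyte markers were 4.68% to 10.7% of the cardiomyocyte level in P56 sham and 1.23% to 4.52% in P1 sham endothelial cells. In leukocytes they were 38.4% to 105% and 34.4% to 45.2%. The part of cardiomyocyte RNA in these differences of age changes was not tested. Without leukocyte library 1 the differences from leukocytes were 1.75 for Acads, 1.70 for Esrra, 2.20 for Ppard and -0.97 for Cpt1a, and that of Acadm (-0.44, limma adjusted p 0.101) was not called.

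MI was next set against sham within each age, to ask what injury does to the pathway's RNA. In adult cardiomyocytes 0 of the 34 genes were called higher and 1 lower, beside 8.66% and 1.03% of all genes, with a median of -0.14 against 0.08. Etfa had 134, 287, 391 and 212 CPM in P56 MI cardiomyocytes, against 463, 523, 310 and 404 CPM in P56 sham cardiomyocytes. MI library 3 lay above sham library 3, so the groups overlapped, and the call (-0.81 ± 0.25, limma adjusted p 0.0496) was lost in 13 alternatives, edgeR among them, which called 0 genes. An unadjusted p under 0.05 was reached by 5 genes, all lower after MI: Acadm, Cpt2, Esrrg, Etfa and Pdk4. Acadm had 660, 1028, 1168 and 812 CPM in P56 MI cardiomyocytes beside the P56 sham values above, and only sham library 3 lay within the MI range. Pdk4 had 372, 939, 610 and 188 CPM in P56 MI cardiomyocytes (-0.94, limma adjusted p 0.184). Without both libraries numbered 3, limma called 0 genes higher and 6 lower, beside 17.4% and 12.5% of all genes: Etfa (-1.19), Acadm (-0.75), Acsl1 (-0.68), Esrrg (-0.64), Etfdh (-0.64) and Pdk4 (-1.38). For Etfa and Acadm the libraries left out held the highest MI and the lowest sham value, and for Pdk4 the lowest sham value. Their omission widens these differences by construction. The shares of all genes called rose as well, so none of the 6 calls without these libraries is separate support. In the comparison of all libraries 9 of 9 leukocyte and 4 of 11 fibroblast markers were higher after MI and 0 of 14 cardiomyocyte markers were called. The fibroblast markers summed to 1554 to 3658 CPM in P56 MI and 337 to 1009 CPM in P56 sham cardiomyocytes, and the part of these shifts was not tested.

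Neither isoform of the entry enzyme was called after adult MI. Cpt1a had 123, 91.6, 102 and 113 CPM and Cpt1b 85.8, 78.3, 49.5 and 84.5 CPM in P56 MI cardiomyocytes, overlapping the sham values for both. The share of Cpt1b in their sum per kb was 60.6% ± 5.81 in P56 MI and 66.6% ± 4.23 in P56 sham cardiomyocytes. Ppara averaged 97.4 ± 36.3 CPM in P56 MI and 125 ± 31.5 CPM in P56 sham cardiomyocytes and was not called. Of the 69 genes tested from the other pathway lists, adult MI called 3 higher and 1 lower, beside the 8.66% and 1.03% of all genes. They were Pdk3 (1.19 ± 0.22), Fabp5 (1.11 ± 0.23) and the mitochondrial carrier Ucp2 (1.03 ± 0.25), which were higher, and Acad11 (-0.63 ± 0.19), which was lower.

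Neonatal MI gave no call among the 34 genes in cardiomyocytes with limma (0.285% of all genes were called higher and 0.0582% lower) or with edgeR. An unadjusted p under 0.05 was reached by Eci1, Mlycd and Ppargc1a, and the fold changes ran between -0.73 and 0.60. Ppargc1a had 89.4, 83.9, 111 and 107 CPM in P1 MI cardiomyocytes, above all 4 P1 sham libraries given above. Eci1 had 147, 144, 186 and 149 CPM in P1 MI cardiomyocytes, against 269, 188, 220 and 189 CPM in P1 sham cardiomyocytes, without overlap and not called. The share of Cpt1b in the summed isoforms was 18.6% ± 1.55 in P1 MI and 18.5% ± 2.70 in P1 sham cardiomyocytes. The response at P56 minus that at P1 was called for 0 genes with limma, beside 1.69% of all genes higher and 0.0582% lower, and for 0 with edgeR. An unadjusted p under 0.05 was reached by 4 genes (Acadm, Cpt1a, Esrrg and Etfa). Without both P56 libraries numbered 3 limma called 4 lower, Etfa (-1.17), Esrrg (-0.98), Acadm (-0.91) and Etfdh (-0.81), and 0 higher, beside 9.79% and 12.7% of all genes. That omission widens the differences of Etfa and Acadm by construction, as described for adult MI, and none of the 4 calls is separate support.

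Adult fibroblasts had less RNA of 17 of the 32 genes tested after MI and more of 1, beside 25.2% and 24.8% of all genes, with a median of -0.34 against -0.03. Fabp3 had 1.83, 1.68, 1.45 and 0.757 CPM in P56 MI fibroblasts, against 9.18, 7.31, 6.85 and 6.51 CPM in P56 sham fibroblasts (-2.07 ± 0.24, limma adjusted p 3.36e-06). Ppargc1a had 1.11, 1.82, 0.940 and 0.530 CPM in P56 MI fibroblasts (-1.83 ± 0.27) and Pdk4 had 12.8, 14.5, 9.47 and 15.8 CPM (-1.53 ± 0.24), beside the sham values above. All 3 genes were lower in every MI library than in any sham library. Slc25a20 was the gene that rose, with 18.9, 16.1, 20.1 and 17.4 CPM in P56 MI fibroblasts, against 16.2, 15.7, 12.5 and 14.2 CPM in P56 sham fibroblasts, by 0.30 ± 0.12 with overlap (limma adjusted p 0.0398). The carnitine shuttle otherwise gave no call, nor did the electron transfer flavoprotein genes. Neonatal fibroblasts gave 0 calls with limma (1.99% of all genes higher, 0.375% lower) and 0 with edgeR, and 3 genes, Fabp3, Ppard and Slc25a20, had an unadjusted p under 0.05. The response differed between ages for 15 genes, all lower at P56 (16.2% of all genes were called higher and 15.5% lower), led by Fabp3 (-2.74 ± 0.33), Ppargc1a (-1.92 ± 0.39) and Pdk4 (-1.53, limma adjusted p 0.00322).

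The same adult fibroblast libraries had less cardiomyocyte RNA after MI. All 14 cardiomyocyte markers were lower after MI (median -2.48), and their summed level was 0.137% to 0.588% of the cardiomyocyte level in P56 MI fibroblasts and 1.45% to 3.05% in P56 sham fibroblasts. Fabp3 stood at 0.114% of its cardiomyocyte level in P56 MI fibroblasts, beside a marker median of 0.111%, and at 0.562% in P56 sham fibroblasts, beside a marker median of 0.657%. Pdk4 stood at 2.49% of its cardiomyocyte level in P56 MI and 4.28% in P56 sham fibroblasts, and Acacb at 2.08% and 3.81%. Both were above all 14 markers in P56 MI fibroblasts (highest marker 1.37%), where 29 of the 34 genes were. In P56 sham fibroblasts both were within the marker range (highest marker 10.8%), and 5 genes were above it. Ttn alone set the highest marker both times. The median of the 34 genes was 3.82% in P56 MI and 4.00% in P56 sham fibroblasts. The part of cardiomyocyte RNA in these changes was not tested.

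Adult leukocytes after MI had less of 31 of the 34 genes and more of 3, beside 28.8% and 30.7% of all genes, with a median of -2.33 against 0.02. Esrrg had 7.29, 3.53, 4.05 and 1.73 CPM in P56 MI leukocytes, against 74.3, 26.9, 25.4 and 31.3 CPM in P56 sham leukocytes (-3.09 ± 0.39). Ppara had 8.96, 6.03, 5.07 and 2.68 CPM in P56 MI leukocytes (-3.07 ± 0.32) and Fabp3 32.3, 19.3, 23.4 and 7.44 CPM, against 269, 151, 86.7 and 151 CPM in P56 sham leukocytes (-3.03 ± 0.39). None of these genes overlapped between MI and sham. In the same libraries all 14 cardiomyocyte markers fell (median -3.13), their summed level being 2.92% to 10.7% of the cardiomyocyte level in P56 MI leukocytes and 38.4% to 105% in P56 sham leukocytes. All 34 genes lay within the range of the markers on that scale in P56 sham leukocytes, also without library 1. That range was 6.92% to 307%, with its top set by Ttn, and is too wide to tell the genes from the markers. The median in P56 sham leukocytes was 31.9953% for the 34 genes and 16.3807% for the markers. All 9 leukocyte markers rose, 10 of 11 endothelial markers fell, and the fibroblast markers summed to 2359 to 7263 CPM in P56 MI and 541 to 1669 CPM in P56 sham leukocytes, with 4 of 11 called higher and 2 lower. The part of these shifts was not tested. Without sham library 1 the counts were 31 lower and 3 higher, the median was -1.99, and the changes were -2.74 for Esrrg, -2.90 for Ppara and -2.75 for Fabp3. The shares of all genes above come from the fit with that library.

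The 3 genes that rose did so while the cardiomyocyte markers fell. In P56 sham cardiomyocytes and P56 MI leukocytes, Cpt1a averaged 87.0 and 175 CPM, Ppard 14.0 and 17.2 CPM, and Acaa1a 85.8 and 44.3 CPM. The part of the loss of cardiomyocyte RNA in these rises was not tested. Cpt1a had 165, 180, 191 and 162 CPM in P56 MI leukocytes, against 173, 124, 123 and 122 CPM in P56 sham leukocytes (0.38 ± 0.12, limma adjusted p 0.0138), where sham library 1 alone reached the MI range. Acaa1a had 42.3, 51.3, 43.2 and 40.6 CPM, against 31.2, 36.1, 33.4 and 37.4 CPM (0.35, limma adjusted p 0.0167). Ppard had 16.8, 17.8, 15.9 and 18.3 CPM in P56 MI leukocytes beside the sham values above (0.52 ± 0.14, limma adjusted p 0.00544). Neither Acaa1a nor Ppard overlapped between the groups. Without sham library 1 the changes were 0.50 for Cpt1a, 0.31 for Acaa1a and 0.43 for Ppard, all still called. In P56 MI leukocytes these 3 genes and Ppargc1b stood above all 14 cardiomyocyte markers relative to cardiomyocytes.

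Neonatal leukocytes after MI had less of 13 genes and more of 2, beside 22.6% of all genes in each direction, with a median of -0.53 against -0.01. Pdk4 had 29.3, 16.4, 18.3 and 11.4 CPM in P1 MI leukocytes, against 64.4, 76.7, 85.9 and 88.2 CPM in P1 sham leukocytes (-2.10 ± 0.62, limma adjusted p 0.0117). Ucp3 had 3.53, 1.14, 1.76 and 1.18 CPM, against 6.54, 6.66, 7.82 and 12.1 CPM (-1.93, limma adjusted p 0.0192), and Fabp3 26.7, 15.1, 26.9 and 13.8 CPM, against 47.3, 47.6, 75.3 and 66.2 CPM (-1.53 ± 0.39). All 3 were lower in every MI library. Cpt1a and Acaa1a rose again, Cpt1a with 191, 225, 167 and 179 CPM in P1 MI leukocytes, against 128, 136, 116 and 136 CPM in P1 sham leukocytes (0.55 ± 0.12, limma adjusted p 0.00158), and Acaa1a by 0.55 (limma adjusted p 0.00124). Of the cardiomyocyte markers 13 of 14 fell (median -1.40), at a summed 8.17% to 22.5% of the cardiomyocyte level in P1 MI leukocytes and 34.4% to 45.2% in P1 sham leukocytes. All 11 endothelial markers fell too, to a summed 479 to 920 CPM in P1 MI leukocytes, against 3893 to 4621 CPM in P1 sham leukocytes. All 5 erythroid markers tested fell, and 9 of 9 leukocyte and 7 of 7 macrophage markers rose. The part of these shifts was not tested. The count of 15 genes became 9 without P1 MI library 2 or without P1 MI library 4, and 27 (3 higher and 24 lower) in a fit of the P1 MI and P1 sham leukocytes alone. Over all genes 6130, 6286 and 8256 were called in these fits, against 7337 in the main one. The response differed between ages for 29 genes, 1 higher and 28 lower at P56 (23.7% and 21.5% of all genes). Ppard was the higher one (0.72 ± 0.20), and Ppara (-2.21 ± 0.45), Acadm (-2.11) and Cpt2 (-2.09) led the lower ones. Without P56 sham library 1 it differed for 1 higher and 24 lower, with Ppard at 0.63, Ppara at -2.05, Acadm at -1.81 and Cpt2 at -1.73. The shares of all genes for this difference come from the fit with that library.

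Adult endothelial cells after MI had less of 22 of the 33 genes tested and more of 0, beside 7.88% and 12.5% of all genes, with a median of -0.56 against 0.02. Fabp3 had 11.8, 11.1, 14.8 and 5.31 CPM in P56 MI endothelial cells, against 36.2, 31.9, 22.8 and 15.4 CPM in P56 sham endothelial cells (-1.28 ± 0.36, limma adjusted p 0.0197). Ppara had 3.20, 3.33, 2.83 and 1.96 CPM in P56 MI endothelial cells (-1.27 ± 0.23, limma adjusted p 0.00136), and Acsl1 69.5, 81.9, 80.0 and 55.1 CPM, against 208, 157, 120 and 99.4 CPM in P56 sham endothelial cells (-0.98 ± 0.17). The MI libraries lay below the sham ones for all 3, with MI library 4 lowest. All 4 acyl-CoA dehydrogenases were among the 22, while Cpt1a was not, at a fold change of 0.01. The count was 13 without P56 sham library 1, 14 without P56 sham library 2, 13 without P56 MI library 4, and 11 in a fit of the adult endothelial groups alone. Over all genes 2808, 2529, 2335 and 1878 were called in the same order, against 3207 in the main fit. Cardiomyocyte markers fell in 9 of 14 cases (median -1.08), at a summed 2.18% to 4.81% of the cardiomyocyte level in P56 MI endothelial cells and 4.68% to 10.7% in P56 sham endothelial cells, and 7 of 8 leukocyte markers rose (median 1.87). Their part in these changes was not tested. Fabp3 stood at 0.862% of its cardiomyocyte level in P56 MI endothelial cells, beside a marker median of 1.02%. In P56 sham endothelial cells it stood at 2.00%, beside a marker median of 2.48%. The median of the 34 genes was 4.98% in P56 MI and 6.82% in P56 sham endothelial cells.

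Neonatal endothelial cells gave 0 calls after MI with limma (0.0891% of all genes higher, 0.127% lower), 0 at an unadjusted p under 0.05 and 0 with edgeR. The response differed between ages for 6 genes, all lower at P56 (3.39% of all genes were called higher and 2.02% lower), among them Fabp3 (-1.87, limma adjusted p 0.0416), Ppara (-1.44) and Acadm (-0.99). That count was 16 without P56 sham library 4 and 3 without any 1 of P56 MI library 4, P56 sham libraries 2 and 3, P1 MI libraries 1 and 3, and P1 sham libraries 1, 2 and 3. Over all genes 777 were called where the count was 16 and 452 to 663 where it was 3, against 850 in the main fit.

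**Figure D4:**
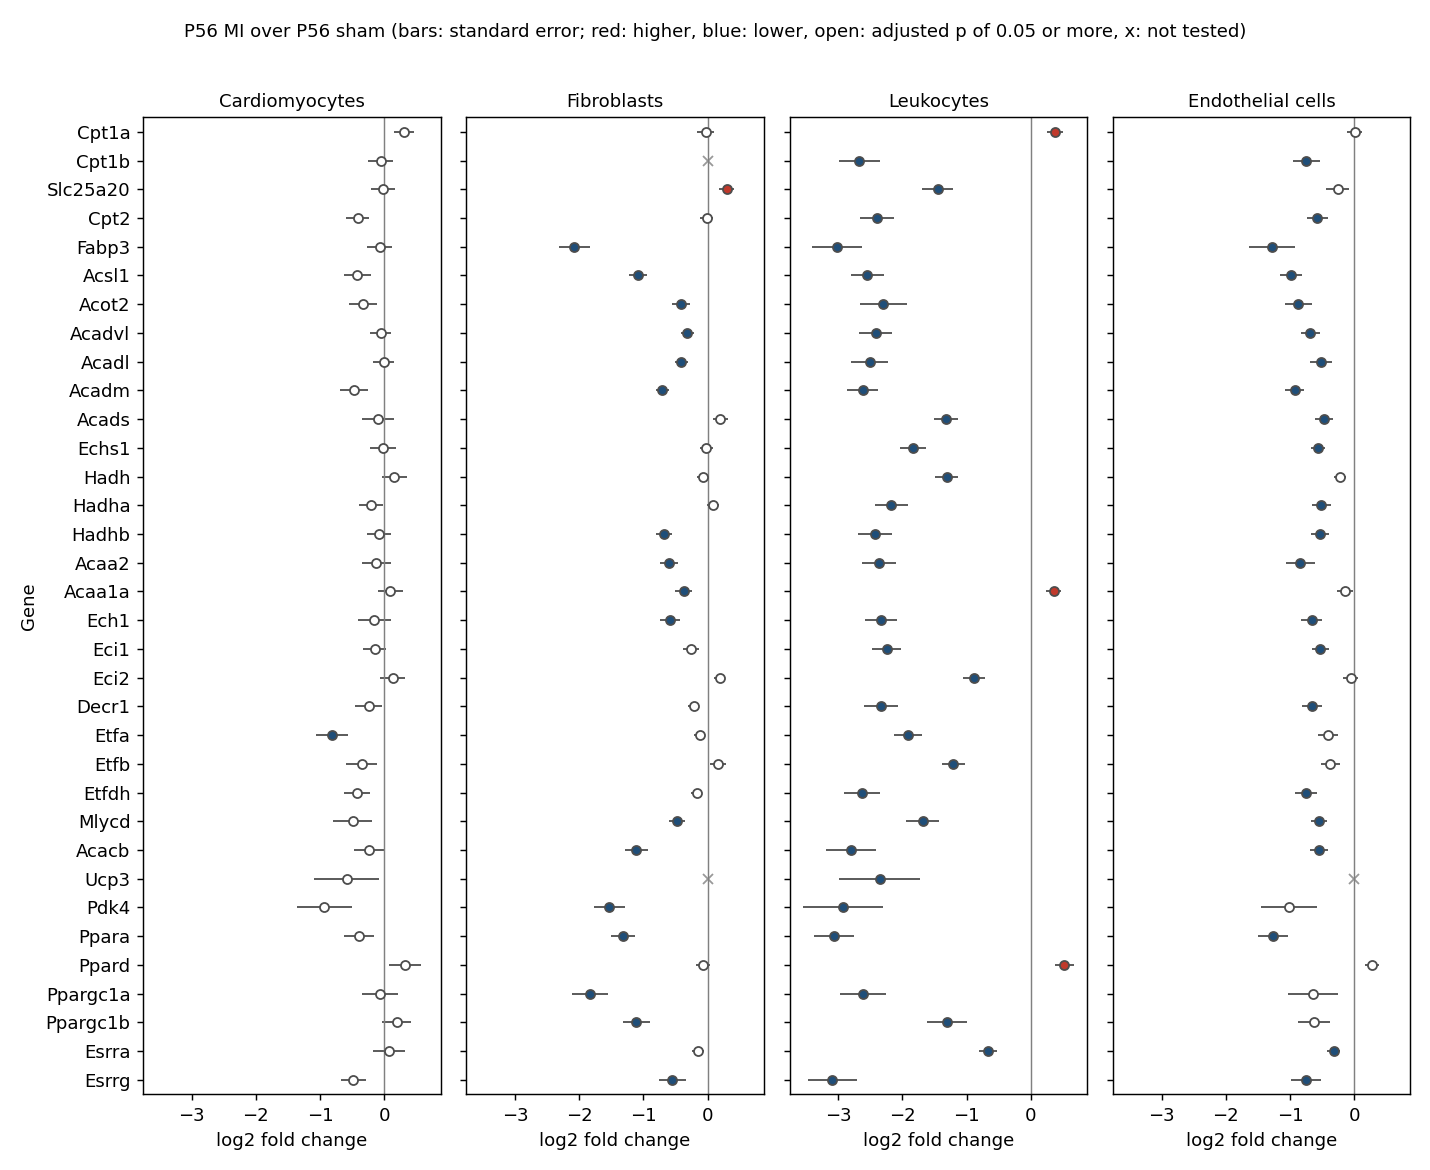
Log2 fold change of P56 MI over P56 sham for each gene in the 4 populations (bars, standard error; red higher, blue lower, open adjusted p of 0.05 or more, x not tested). Cardiomyocytes show 1 call, fibroblasts 18, leukocytes 34 and endothelial cells 22, and Cpt1a, Acaa1a and Ppard are the red points in leukocytes.

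Pdk4 and Ucp3 had their highest value of the P56 sham groups in library 1 of every population. Pdk4 had 1704 CPM in library 1 of P56 sham cardiomyocytes and 465 to 989 CPM in the others. In leukocytes it had 1517 CPM in library 1 and 89.0 to 229.7 CPM in the others, and in endothelial cells 174 CPM and 27.5 to 51.1 CPM. Ucp3 showed the same order, with 67.3 CPM in library 1 of P56 sham leukocytes and 5.01 to 7.71 CPM in the others, and 7.57 CPM in library 1 of P56 sham endothelial cells and 0.604 to 1.15 CPM in the others. In P56 sham fibroblasts Ucp3 had 2.65, 0.348, 0.230 and 0.728 CPM. Library 1 was the highest of 4 for 32 of the 34 genes in P56 sham leukocytes, 31 in endothelial cells, 24 in fibroblasts and 7 in cardiomyocytes. The same count was not made over all genes, so whether this is particular to the 34 genes was not tested. Without library 1 the age change of Pdk4 in cardiomyocytes was 1.76 ± 0.43 (limma adjusted p 0.00151) and that of Ucp3 0.38 (limma adjusted p 0.330). Without it, 31 genes rose and 1 fell with age in cardiomyocytes, 16 and 6 in fibroblasts, and 26 and 1 in endothelial cells. After adult MI without it, 1 rose and 14 fell in fibroblasts and 0 rose and 13 fell in endothelial cells. That last fit called 2808 genes over all genes. The shares of all genes given above come from fits with library 1, so the other counts here have none of their own beside them. The labels do not say whether the libraries numbered 1 share an animal.

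**Figure D5:**
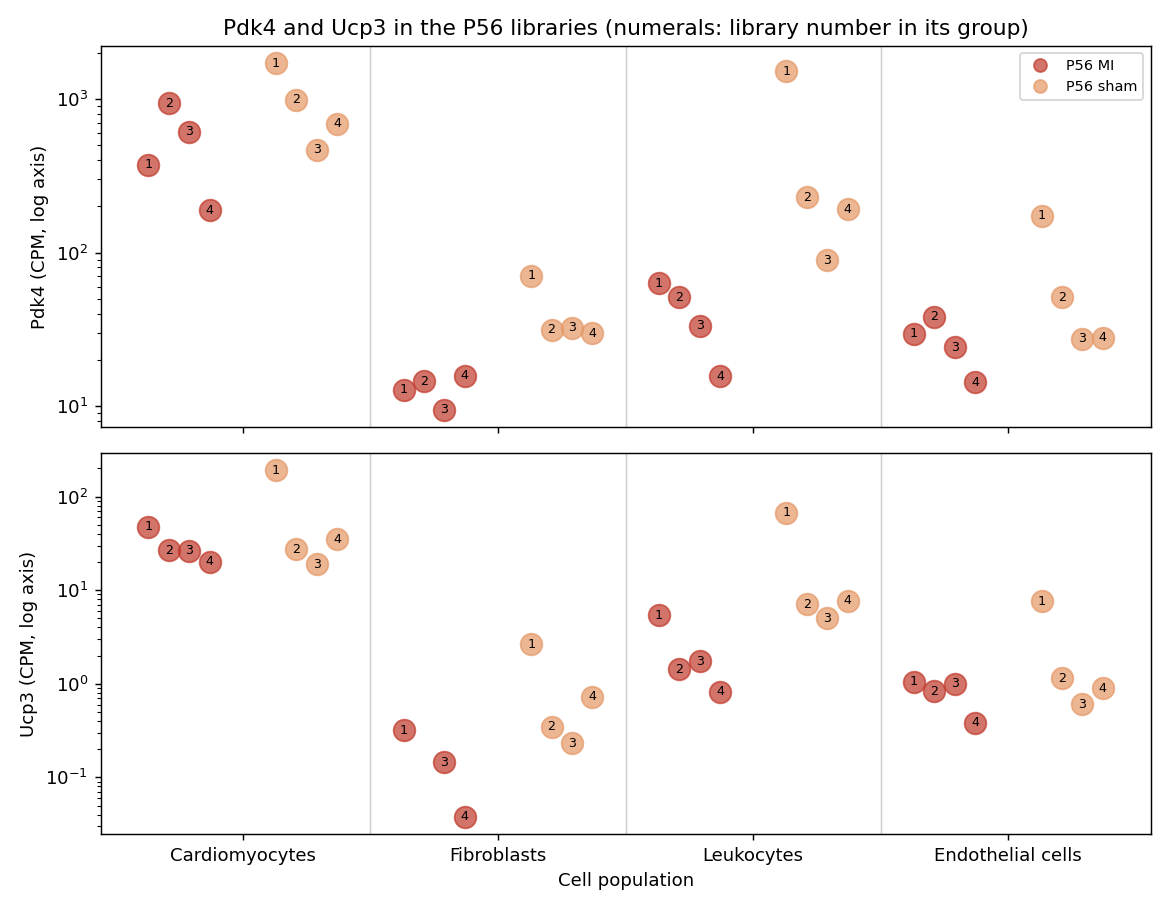
Normalised read count (CPM, log axis) of Pdk4 and Ucp3 in each library of the P56 groups, by population and library number. Ucp3 is listed at 0 in P56 MI fibroblast library 2 and is not drawn there. Library 1 of the P56 sham groups is the highest of its 4 libraries for both genes in all 4 populations.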

How the data were processed

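Per the labels' protocols, total RNA was depleted of ribosomal RNA with Ribo-Zero Gold and made into stranded TruSeq libraries, read as 50-base single ends. Tools named in the submitters' processing notes are Trimmomatic, STAR, HTSeq and edgeR, with no versions, and builds are GRCm38, mm10 and GRCh38, with no roles. How the counting treated strand was not given. The authors deposited 1 table with a normalised signal per gene and library, which they named CPM, and a gene length (another unit, bases). The CPM signal sums to 776590 to 2.63e+06 per library, and within 0.01 each value was a whole number of reads (100% of values).

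Groups came from the labels. The table's CPM values being normalised, the main test was limma 3.58.1 (R 4.3.3) with a mean-variance trend on log2(CPM + 0.5), two-sided, over genes with 1 CPM or more in 4 or more of the fitted libraries (15461 in cardiomyocytes, 15729 in fibroblasts, 16239 in leukocytes, 15706 in endothelial cells). Each population's 16 libraries were fitted together, and the 32 sham libraries together for comparisons between populations (17618 genes). The edgeR 4.0.16 quasi-likelihood test on recovered reads was an alternative and called 10779 genes with age in cardiomyocytes. Both steps were tested on simulated data. Other alternatives were a pseudocount of 0.1 or of 1, a low-value filter at 5 CPM or none, 2 other scalings, the replicate number as a block, fits of only the groups compared, and leaving out libraries.

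The 34 genes and the other lists were chosen with earlier results of these data known. Genes with values in every library were a set of 12 in cardiomyocytes and up to 3 called genes per direction and comparison with the largest change; Acadm, Cpt2, Pdk4, Mlycd, Acsl1, Ucp3, Eci1 and Ppargc1a were also shown elsewhere after their values were seen. Levels per kb used GENCODE M21 exon lengths and, beside them, the authors' lengths. Within groups 0 of 96 pairs of libraries were identical, and the smallest chi-square per gene was 7.36, so each library counted as 1 replicate. In the P56 sham groups libraries of the same number deviated together between cardiomyocytes and each other population (correlations 0.12 to 0.42), which pairs them. The main fit left this pairing out. The block changed no count of calls between those populations by over 1.5 times. It put P1 and P56 libraries of the same number in the same block, although these did not pair. It therefore does not model the pairing found and cannot show what leaving it out does. MI and sham libraries of the same number did not pair.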

Additional observations from a re-analysis of the deposited data

Results flagged for a closer look

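Among the named genes and groups, 14 of 133 sets of 4 libraries had a highest or lowest library far from the rest. Over every gene of the pathway in every group it was 41 of 544 sets. Chance gives about 1 in 20 for independent sets, but these sets share libraries. Some named sets, such as Pdk4 and Ucp3, were also chosen after their values were seen. The 14 can therefore not be compared with chance. Library 1 of the P56 sham groups was the high one for 9 of the 14. Pdk4 stood at 70.6 CPM in fibroblasts, 1517 CPM in leukocytes and 174 CPM in endothelial cells. Ucp3 stood at 191 CPM in cardiomyocytes, 67.3 CPM in leukocytes and 7.57 CPM in endothelial cells. In P56 sham leukocytes library 1 was also high for Cpt1a (173 CPM), Ppara (67.8 CPM) and Esrrg (74.3 CPM). In P1 sham endothelial cells library 4 was high for Ppara (1.25 CPM) and Ppargc1a (4.81 CPM), and the same library had the highest sum of cardiomyocyte markers. A low library was found for Ech1 in P56 sham cardiomyocytes (library 4, 2797 CPM), Cpt2 in P56 MI leukocytes (library 4, 15.8 CPM) and Etfb in P1 sham fibroblasts (library 3, 8.38 CPM).

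The MI response differed between P56 and P1 by the interaction term of the limma fit for these genes. In fibroblasts the differences were Fabp3 -2.74, Ppargc1a -1.92 and Pdk4 -1.53. In leukocytes they were Ppard 0.72, Ppara -2.21, Acadm -2.11 and Cpt2 -2.09. In endothelial cells they were Fabp3 -1.87, Ppara -1.44 and Acadm -0.99.

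The age change in cardiomyocytes differed from that in another population for these genes, again by the limma contrast. Against fibroblasts the differences were Acads 3.00, Etfb 2.82, Ech1 2.73 and Cpt1a -0.84. Against leukocytes they were Ppard 2.29, Esrra 1.54, Acads 1.50, Cpt1a -1.09 and Acadm -0.73. Against endothelial cells they were Acads 2.73, Etfb 1.97, Esrra 1.82, Ppargc1a -1.78, Fabp3 -1.33 and Cpt1a -0.88.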

How the results depend on the processing

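For 71 values of single genes, 1479 alternatives were computed: 1418 kept the direction and the side of the threshold, 61 lost the call and 0 reversed. Calls were lost in 13 alternatives for Etfa after adult MI in cardiomyocytes (adjusted p up to 0.199) and for Fabp3 in the difference of endothelial responses (up to 0.0927), in 10 for Acaa2 with age in fibroblasts, in 7 for Acadm between the age changes of cardiomyocytes and leukocytes, in 6 for Slc25a20 after adult MI in fibroblasts, and in 1 to 4 for Eci2, Fabp3, Ucp3, Acaa1a and Ppargc1a. Of 211 counts of called genes outside the omission of single libraries, 14 moved by over 1.5 times. The count after adult MI in cardiomyocytes, 1, was 0 with a pseudocount of 1, no filter, a filter at 5 CPM, scaling without ribosomal and mitochondrial RNA, the replicate block, a fit of only the groups compared, omission of the libraries over 5% 18S, and edgeR. It was 6 without both P56 cardiomyocyte libraries numbered 3, where the difference of responses gave 4. That omission widens the differences of Etfa, Acadm and Pdk4 by construction. Over all genes it gave 4592 and 3458 calls, against 1498 and 270 in the main fit. The rescaling without ribosomal and mitochondrial RNA also replaces the authors' normalisation. On it the age changes differed from fibroblasts for 15 genes and from leukocytes for 20, beside 13378 and 10921 called over all genes. A fit of only the groups compared called 27 genes after neonatal MI in leukocytes and 11 after adult MI in endothelial cells. The cause of these shifts was not tested.

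Leaving out 1 library at a time gave, with age, 32 to 34 genes in cardiomyocytes, 18 to 24 in fibroblasts, 29 to 30 in leukocytes and 26 to 29 in endothelial cells. After adult MI it gave 0 to 3, 14 to 18, 33 to 34 and 13 to 25 in the same order of populations, and 9 to 14 after neonatal MI in leukocytes, where every such count was below the 15 of all libraries. The differences of responses gave 0 to 2, 12 to 15, 25 to 29 and 3 to 16. These ranges have no counts over all genes beside them. The MI and sham libraries of the same number shared only a number. With the replicate block, MI at P56 gave 0, 19, 34 and 23 genes and age 34, 22, 29 and 29. Over all genes the block gave 1207, 7587, 9696 and 2889 calls for MI at P56 and 10521, 10330, 10923 and 9657 for age. Without the filter, which Ucp3 and Cpt1b did not pass in fibroblasts, fibroblasts gave 23 genes with age and 19 after adult MI, beside 12314 and 8608 over all genes. Levels below 3 reads (0.102 to 0.409 CPM), as for Ucp3 in P56 MI fibroblast library 2, were not detectable at this depth.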
